A study of Mus musculus with 2 samples.

Results

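A set of 10 genes that mark macrophages was followed in cultured calvarial osteoblasts of newborn Slc39a13-KO and wild-type mice. They were Lyz1, Lyz2, Cd68, Cd53, Csf1r, Fcer1g, Tyrobp, Laptm5, Cd14 and Ptprc, and every probe set that the platform annotation gives to exactly 1 of these symbols was taken. This gave 20 of the 45101 probe sets of the array, and all 10 genes had at least 1. The list was drawn up with earlier results of these 2 arrays known.

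Slc39a13 encodes the zinc transporter ZIP13, and the knockout allele carries a Neo cassette in place of exons 6 to 8. The Slc39a13-KO group is 1 array of primary osteoblasts from newborn knockout pups, and the wild-type group is 1 array of primary osteoblasts from newborn wild-type pups. Both cultures came from fractions 3 to 5 of a collagenase and dispase digest of skull vault and were grown in medium with serum, and no sorting step for a cell type is described. The sources used here state neither the number nor the sex of the pups. Because each genotype has 1 array, no difference could be tested between genotypes or checked in replicates, and fewer cells of a type cannot be told apart from less RNA per cell.

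Macrophages are phagocytes of the innate immune system, and resident ones sit among the osteoblasts that line bone. They depend on the growth factor receptor encoded by Csf1r, sense bacterial products through Cd14, carry short adaptor proteins such as Fcer1g and Tyrobp that couple immune receptors to kinases, and hold many lysosomes, where Cd68 and Laptm5 reside. Ptprc (CD45) is a surface phosphatase of nearly all white blood cells, Cd53 is a tetraspanin of white blood cells, and the lysozymes Lyz1 and Lyz2 are secreted enzymes that cleave bacterial cell walls. Lyz2 is the lysozyme of mouse macrophages and neutrophils, whereas Lyz1 is best known from Paneth cells of the gut.

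Lyz1 and Lyz2 are neighboring, closely related genes, so their windows around the transcription start are shown side by side, with those of Cd68 and Cd53, the other genes with a called difference for which a window was at hand. Each window runs from 250 bases before to 50 bases after the start in the RefSeq tables of GRCm38.p6, written 5′ to 3′ on the strand of the gene, and capitals mark the letters AGGAAGT or their reverse complement ACTTCCT, a form of the site bound by PU.1 and other ETS factors. The motif was chosen after these sequences were seen.
Lyz1, chr10:117292819-117293118, minus strand: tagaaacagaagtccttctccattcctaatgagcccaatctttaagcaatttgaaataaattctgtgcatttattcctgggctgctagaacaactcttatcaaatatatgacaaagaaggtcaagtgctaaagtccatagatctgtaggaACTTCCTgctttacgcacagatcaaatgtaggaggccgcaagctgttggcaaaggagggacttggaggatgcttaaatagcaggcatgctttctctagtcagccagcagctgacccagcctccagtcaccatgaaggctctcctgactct
Lyz2, chr10:117282223-117282522, minus strand: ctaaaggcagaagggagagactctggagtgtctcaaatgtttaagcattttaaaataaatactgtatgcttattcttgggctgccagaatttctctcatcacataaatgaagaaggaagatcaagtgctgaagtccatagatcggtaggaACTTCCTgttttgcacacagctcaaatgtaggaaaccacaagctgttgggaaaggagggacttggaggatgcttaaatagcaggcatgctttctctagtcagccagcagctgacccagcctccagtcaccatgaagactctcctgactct
Cd68, chr11:69666121-69666420, minus strand: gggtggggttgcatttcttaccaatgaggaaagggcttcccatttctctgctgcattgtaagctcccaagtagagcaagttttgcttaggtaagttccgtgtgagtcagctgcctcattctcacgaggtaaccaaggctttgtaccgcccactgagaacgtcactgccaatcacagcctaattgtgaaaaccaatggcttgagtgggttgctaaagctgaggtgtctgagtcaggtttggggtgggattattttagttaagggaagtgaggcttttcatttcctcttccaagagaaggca
Cd53, chr3:106790100-106790399, minus strand: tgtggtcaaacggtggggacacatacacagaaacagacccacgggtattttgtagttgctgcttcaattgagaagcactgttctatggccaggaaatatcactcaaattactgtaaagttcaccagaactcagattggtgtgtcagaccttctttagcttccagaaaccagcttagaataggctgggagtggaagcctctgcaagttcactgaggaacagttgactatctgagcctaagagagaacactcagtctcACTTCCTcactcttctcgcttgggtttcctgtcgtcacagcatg

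The Lyz1 and Lyz2 windows were identical at 201 of 300 bases when laid over each other without gaps, and at 99 of the last 100. The longest identical run was 86 bases, from 50 bases before the start to 36 bases after it. Both windows held the motif 100 bases before the start. The 8 windows of 7 of the 10 genes, all but Csf1r, Tyrobp and Cd14, were searched on both strands. The motif was held by 5 windows of 4 genes, Lyz1, Lyz2, Cd53 and Ptprc, and by 9.35% of all 32851 windows. The longer form GAGGAAGT, which contains the shorter one, was found in the Cd53 window alone of these genes and in 3.20% of all windows. Because the motif was chosen after the windows shown were seen, and Lyz1 and Lyz2 share much of theirs, these counts cannot be read as an enrichment. A match of letters describes the window and does not show a bound site.

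Signals are linear MAS5 intensities in arbitrary units, on which both arrays had the same trimmed mean. Signals under a floor of 85.1, the 50th percentile of the pooled values, were raised to it before log2 was taken, and a probe set was measured if it exceeded the floor in at least 1 array. A gene was called higher or lower at a mean difference of 2-fold or more, the threshold in the methods of the study, if its measured probe sets all pointed the same way. Where 1 signal lay under the floor the fold is a lower bound, given as at least N-fold. The only spread that 2 arrays offer is that between probe sets of the same gene, whose log2 ratios had a median SD of 0.34 and an SD of 0.75 at the 90th percentile.

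As a check of the labels, Slc39a13 had a signal of 90.4 in the Slc39a13-KO array and 1309 in the wild-type array. Over all genes the share of probe sets above the floor was 58.9% in the Slc39a13-KO array and 55.4% in the wild-type array. The median log2 ratio of all 12269 measured genes was 0.11. All 24 probe sets for the bacterial poly-A control RNAs read lower in Slc39a13-KO, and with the arrays scaled on them the median of all genes was 0.94. The bone collagen gene Col1a2 had signals of 25943 in Slc39a13-KO and 28503 in wild-type, and the bone matrix gene Sparc had 49640 in Slc39a13-KO and 40038 in wild-type. Col1a1 had 7655 in Slc39a13-KO and 12230 in wild-type. Of the defining osteoblast markers, Sp7 had signals of 153.5 in Slc39a13-KO and 94.8 in wild-type, above the floor in both arrays. Alkaline phosphatase (Alpl) had a signal of 197.4 in Slc39a13-KO and lay under the floor in wild-type. Ibsp was under the floor in both arrays, and Runx2 and Bglap had no probe set annotated to them alone.

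Of the 10 macrophage markers, 4 were called higher in the Slc39a13-KO array, 1 was called lower, 4 were measured without a call and 1 was under the floor in both arrays. Over all measured genes 8.01% were called higher and 5.93% lower. Among genes no brighter than Cd53 in either array, a range that holds the markers other than the lysozymes, these shares were 7.08% and 4.84%. Without Lyz1 and Lyz2, 2 of 7 measured markers were called higher and 1 lower. Both of these called higher, Cd68 and Tyrobp, passed the floor only through the Slc39a13-KO array. The median log2 ratio of the 9 measured markers was 0.73, but 3 of the 9 passed the floor only through the Slc39a13-KO array and could only come out higher. Of the 20 probe sets 10 exceeded the floor in both arrays, 9 of them higher and 1 lower in Slc39a13-KO. Over all genes 18068 probe sets exceeded it in both arrays, 10096 of them higher and 7972 lower in Slc39a13-KO. A further 5 marker probe sets exceeded the floor only in Slc39a13-KO and 0 only in wild-type. Over all genes 7.18% of probe sets did so only in Slc39a13-KO and 3.74% only in wild-type. With poly-A scaling 7 of the 10 markers were called higher and 0 lower, against 45.8% and 1.75% of all genes.

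**Figure D1:**
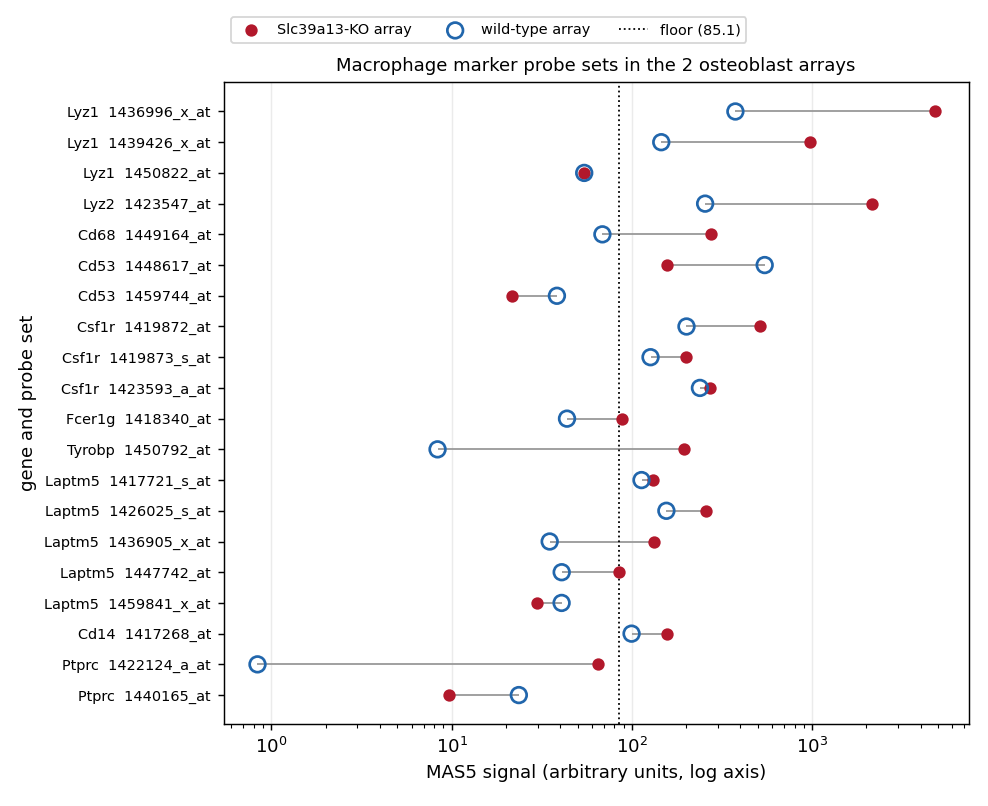
MAS5 signal (horizontal, arbitrary units, log axis) of the 20 probe sets of the macrophage markers, filled red for the Slc39a13-KO array and open blue for the wild-type array, with a dotted line at the floor of 85.1. The lysozyme probe sets with signal lie far to the right in Slc39a13-KO, the brighter Cd53 probe set is the only one above the floor that runs the other way, and both Ptprc probe sets lie left of the floor in both arrays.

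Among the markers with signal in both arrays the lysozymes differed most. Lyz2 was read by 1 probe set, 1423547_at, with a signal of 2146 in Slc39a13-KO and 255 in wild-type, 8.41-fold higher. Lyz1 was read by 3 probe sets. The probe set 1436996_x_at had 4790 in Slc39a13-KO and 375.7 in wild-type, and 1439426_x_at had 978 in Slc39a13-KO and 145.7 in wild-type. Both carry the suffix _x_at, which the maker of the array gives to probe sets with some probes that can also match other transcripts. Their mean was 9.25-fold higher, a log2 difference of 3.21 with an SD of 0.65 over the 2. The remaining Lyz1 probe set, 1450822_at, which carries no such suffix, had 54.4 in Slc39a13-KO and 54.5 in wild-type, under the floor in both. The higher Lyz1 value therefore rests on the probe sets that can read related transcripts, and a rise of Lyz1 apart from Lyz2 was not shown. With the dim probe set let in by a lower floor or none, the mean log2 ratio was 2.14 and Lyz1 lost its call. That probe set hardly differed (log2 ratio -0.002), and a call required all measured probe sets to point the same way. With suffixed probe sets left out, Lyz1 was not measured. Of 5 other members of the lysozyme family with a probe set, Spaca3, a lysozyme-like protein of sperm, had 99.8 in Slc39a13-KO and lay under the floor in wild-type, and Lyzl1, Lyzl4, Lyzl6 and Lalba were under the floor in both.

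The adaptor Tyrobp (DAP12), which passes signals from receptors such as Trem2 to the kinase Syk, had a signal of 195.9 in Slc39a13-KO and 8.37 in wild-type, far under the floor. This is at least 2.30-fold higher. Fcer1g, the common γ chain of Fc receptors, had 88.6 in Slc39a13-KO and 43.7 in wild-type, so that it barely exceeded the floor in Slc39a13-KO and its fold was not read. With the floor at the 30th percentile or none Fcer1g was called higher. Both are short membrane proteins with the same kind of tyrosine signaling motif, the ITAM, and each was read by 1 probe set. Of 20 genes for their partner receptors and kinases with a probe set, 11 were measured. Of these 0 were called higher and 1 lower, against 8.01% and 5.93% of all measured genes. The gene called lower was Syk itself, with 86.6 in Slc39a13-KO and 207.4 in wild-type over 2 probe sets. The Syk fold is at least 2.40-fold, and its call was lost with poly-A scaling (log2 ratio -0.38). Among the receptors, Trem2 had 90.5 in Slc39a13-KO and 114.8 in wild-type, and Fcgr3 had 101.0 in Slc39a13-KO and lay under the floor in wild-type.

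Of the lysosomal markers 1 was called. Cd68, a heavily glycosylated protein of late endosomes and the standard stain for macrophages, had a signal of 274.5 in Slc39a13-KO and 68.7 in wild-type, at least 3.23-fold higher. Laptm5, a lysosomal membrane protein of blood cells, had 5 probe sets, which differed among themselves. The probe set 1426025_s_at had 259.1 in Slc39a13-KO and 155.6 in wild-type, and 1417721_s_at had 131.4 in Slc39a13-KO and 113.3 in wild-type. The suffix _s_at marks probes shared by several transcripts. The probe sets 1436905_x_at and 1447742_at exceeded the floor only in Slc39a13-KO (133.2 and 85.4), and 1459841_x_at was under it in both arrays. The mean log2 ratio of the 4 measured probe sets was 0.40 (SD 0.35), and Laptm5 was not called. For comparison, 10 genes for general lysosomal membrane proteins and Laptm relatives were all measured. Of these 0 were called in either direction, against 8.01% higher and 5.93% lower of all measured genes. With poly-A scaling 8 of them were called higher, against 45.8% of all genes. Laptm4a, a relative found in most cell types, was 1.56-fold higher and the main lysosomal membrane protein Lamp1 had 15878 in Slc39a13-KO and 15319 in wild-type.

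Among the surface receptors Csf1r was not called. Its 3 probe sets were all higher in Slc39a13-KO but by different amounts. The probe set 1419872_at had 512.7 in Slc39a13-KO and 201.2 in wild-type, a 2.55-fold difference, 1419873_s_at had 199.6 in Slc39a13-KO and 127.1 in wild-type, and 1423593_a_at, whose suffix marks variants of the same gene, had 271.8 in Slc39a13-KO and 238.9 in wild-type. The mean log2 ratio was 0.73 with an SD of 0.59 between the 3 probe sets, so the difference was of about the size of the disagreement between them. Csf1r was called higher with its brightest probe set alone (log2 ratio 1.35), which is also its only one without a suffix, and with poly-A scaling (1.75). Cd14, the co-receptor for bacterial lipopolysaccharide, had 156.6 in Slc39a13-KO and 99.7 in wild-type, a 1.57-fold difference that was not called. Ptprc was not measured. Its probe set 1422124_a_at had 64.9 in Slc39a13-KO and 0.84 in wild-type, and 1440165_at had 9.70 in Slc39a13-KO and 23.6 in wild-type. All 4 values lie under the floor, where MAS5 signals have no reliable order, and the probe sets differed in opposite directions.

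Cd53 was the only marker called lower. Its probe set 1448617_at had a signal of 156.0 in Slc39a13-KO and 546 in wild-type, a 3.50-fold difference with a log2 ratio of -1.81. Its second probe set, 1459744_at, had 21.6 in Slc39a13-KO and 38.4 in wild-type, under the floor in both. The Cd53 call was lost with poly-A scaling (log2 ratio -0.79) and with the floor at the 30th (-0.97) or 70th percentile (-0.77), although the sign stayed negative in each. Of 15 other tetraspanins measured, 1 was called higher and 0 lower, against 8.01% and 5.93% of all measured genes. The gene called higher was Tspan6, with 5731 in Slc39a13-KO and 1928 in wild-type. With poly-A scaling 9 tetraspanins were called higher and 0 lower, against 45.8% and 1.75% of all genes. Cd81 and Cd9, tetraspanins of many cell types chosen after their values were seen, had log2 ratios of -0.06 and 0.92. Cd37, a tetraspanin of white blood cells, was under the floor in both arrays.

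**Figure D2:**
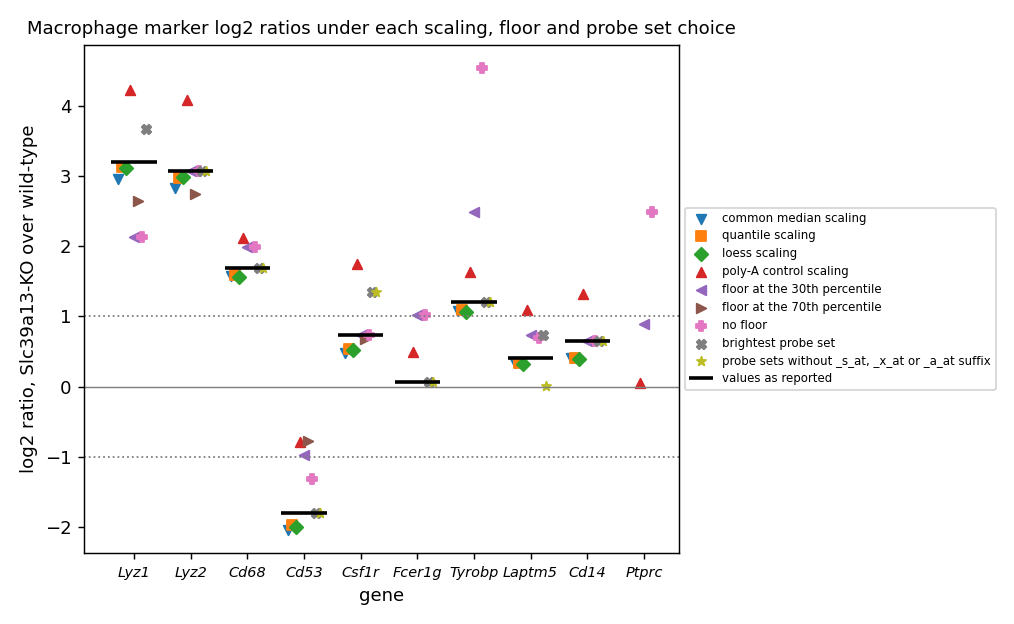
Log2 of the Slc39a13-KO signal over the wild-type signal (vertical axis) for each macrophage marker gene (horizontal axis), with a black bar for the value as reported, colored symbols for each other scaling, floor or choice of probe sets, and dotted lines at 2-fold. Lyz1 and Lyz2 stay above a log2 ratio of 2 and Cd53 stays below 0 throughout, whereas Tyrobp moves between 1.06 and 4.55 and Laptm5 between 0.01 and 1.09, and Ptprc has values only where its dim signals are let in.

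A further 34 macrophage genes outside the 10 were read to see whether they differed likewise. Of these 17 were measured, and 17 were under the floor in both arrays. Of the measured genes 8 were called higher and 0 lower, against 8.01% and 5.93% of all measured genes. Of the 8 called higher, 5 passed the floor only through the Slc39a13-KO array and could only come out higher. The median log2 ratio of the measured genes of this list was 0.64 against 0.11 for all genes, but 10 of the 17 passed the floor only through the Slc39a13-KO array. Mertk, a receptor for the uptake of dying cells, had 1177 in Slc39a13-KO and 233 in wild-type, 5.05-fold higher. The protease Ctss (cathepsin S) had 315.9 in Slc39a13-KO and was at least 3.71-fold higher. The complement gene C1qb had signals of 296.1, 420.0 and 250.7 for its 3 probe sets in Slc39a13-KO, against 24.6, 35.8 and 2.74 in wild-type, and was at least 3.70-fold higher. Ms4a7, a membrane protein of macrophages, had 286.5 in Slc39a13-KO and was at least 3.37-fold higher.

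The remaining called genes of this list, named after their values were seen because the count was small, were Adgre1 (F4/80), the classical surface marker of mouse macrophages, at least 2.79-fold higher, C1qa, at least 2.58-fold higher, Pf4 (2.34-fold) and Fcgr2b, an inhibitory Fc receptor (2.05-fold). Pf4 and Fcgr2b lost the call with median, quantile and loess scaling, and Fcgr2b also with poly-A scaling. At the other end Lgals3 (galectin 3), which many stromal cells also make, had 1690 in Slc39a13-KO and 3180 in wild-type and was not called. Several genes that define the lineage were under the floor in both arrays. Spi1, which encodes PU.1, the master regulator of macrophages, had 71.1 in Slc39a13-KO and 76.8 in wild-type. Itgam (CD11b), Fcgr1 (CD64), Cx3cr1, Irf8 and Cd163 were likewise under the floor. With poly-A scaling 9 of 23 measured genes of this list were called higher, against 45.8% of all genes. The list median of 0.68 with that scaling lay below the 0.94 of all genes.

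**Figure D3:**
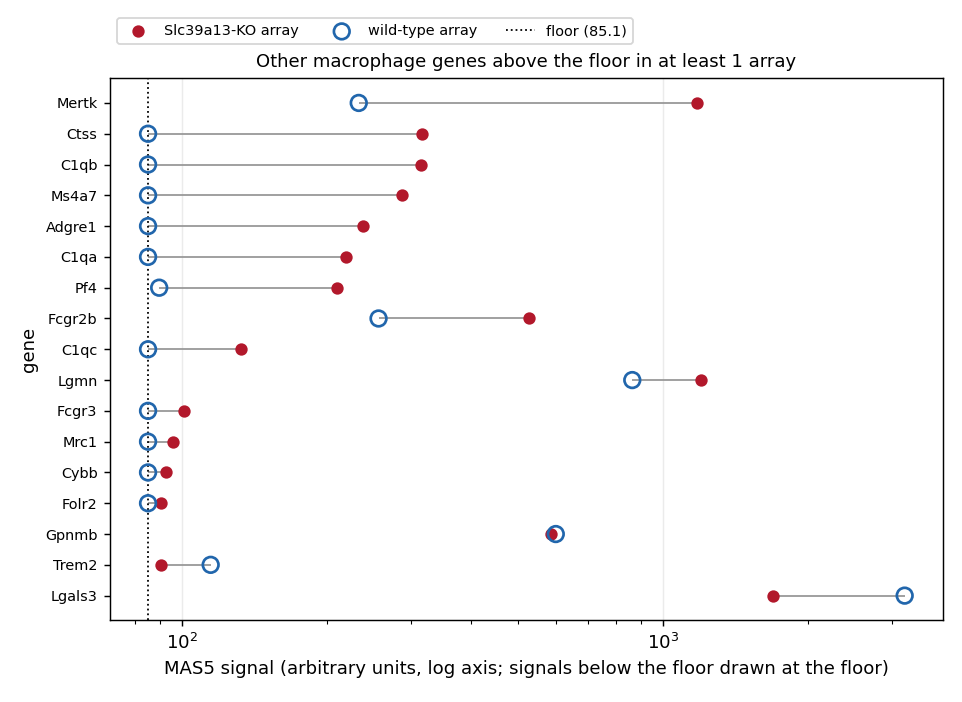
MAS5 signal (horizontal, arbitrary units, log axis) of the 17 measured macrophage genes outside the 10, each a geometric mean over measured probe sets, filled red for the Slc39a13-KO array and open blue for the wild-type array, with signals under the floor drawn on the dotted line at 85.1. The wild-type signal sits on the floor for 10 genes, and Trem2, Gpnmb and Lgals3 are the only ones to the left in Slc39a13-KO.

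The summed signal of the 20 marker probe sets was 10560 in Slc39a13-KO and 2614 in wild-type. Without the 4 lysozyme probe sets the sums were 2591 in Slc39a13-KO and 1782 in wild-type, a ratio of 1.45, so the lysozymes made up most of the difference. With Cd53 left out too, a choice made after its value was seen, the ratio was 2.01. Over all genes the ratio of the summed signals was 1.00. The common trimmed mean holds that ratio near this value, so it does not show how far the sum of a small list can vary. For the 59 probe sets of the other macrophage genes the sums were 9738 in Slc39a13-KO and 6726 in wild-type, a ratio of 1.45. Without Lgals3, likewise left out after its value was seen, that ratio was 2.27. Of the 59 probe sets 20 were above the floor in Slc39a13-KO and 7 in wild-type. Over all genes 58.9% of probe sets were above the floor in Slc39a13-KO and 55.4% in wild-type. Of the 59 probe sets 13 exceeded the floor only in Slc39a13-KO and 0 only in wild-type, against 7.18% and 3.74% over all genes.

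The genes for the ligands of Csf1r were lower in Slc39a13-KO. Csf1, the main ligand of Csf1r, was lower for all 4 of its probe sets, with a geometric mean of 1527 in Slc39a13-KO and 3535 in wild-type, a 2.31-fold difference. Il34, the other ligand of Csf1r, had 132.1 in Slc39a13-KO and 388 in wild-type, 2.94-fold lower. Both calls were lost with poly-A scaling, where the log2 ratios were -0.19 and -0.53. Csf2ra, a subunit of the GM-CSF receptor, had 493 in Slc39a13-KO and 239 in wild-type, a 2.06-fold difference whose call was lost with median, quantile and loess scaling. Kitl (stem cell factor) was 1.64-fold higher and not called, Csf3r barely exceeded the floor with 88.7 in Slc39a13-KO, and Csf2, Csf3, Csf2rb, Flt3 and Kit were under the floor in both arrays.

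Of 9 measured partners of Cd14 in the response to lipopolysaccharide 0 were called, against the 8.01% higher and 5.93% lower of all genes. With poly-A scaling 6 of them were called higher, against 45.8% of all genes. The receptor Tlr4 had 251.5 in Slc39a13-KO and 244.0 in wild-type, and its binding partner Ly96 (MD-2) had 564.5 in Slc39a13-KO and 600.3 in wild-type. Tlr2, the receptor for bacterial lipoproteins, was 1.45-fold higher, and the plasma carrier Lbp 1.34-fold higher. The signaling adaptors Myd88 and Ticam1 had log2 ratios of 0.24 and 0.15. The probe sets of the kinase Irak1 ranged between -1.28 and 0.04. Of the measured probe sets of Traf6, 1 had a log2 ratio of -0.21 and the other at least 1.02, with a wild-type signal under the floor. Tirap was lower for both of its probe sets, with log2 ratios of -0.45 and, with a Slc39a13-KO signal under the floor, -0.65 or below.

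Of 19 pan-leukocyte genes with a probe set 9 were measured. Of these 0 were called higher and 2 lower, against 8.01% and 5.93% of all measured genes. The 2 called lower were Cd44, a hyaluronan receptor that stromal cells also carry, with 1924 in Slc39a13-KO and 7369 in wild-type, and Arhgdib, with 1677 in Slc39a13-KO and 6141 in wild-type. Both calls were lost with poly-A scaling (log2 ratios -0.92 and -0.85). Of the other 7 measured genes 5 exceeded the floor only in Slc39a13-KO, with signals of 123.8 for the actin-bundling protein Lcp1, 123.1 for the adaptor Lcp2, 111.0 for Plek, 104.7 for Cd52 and 103.2 for Evi2a. The signaling protein Vav1 had 121.2 in Slc39a13-KO and 135.3 in wild-type, and Ikzf1 exceeded the floor only in wild-type, with 88.8. The remaining 10 genes, among them the integrin chain Itgb2, were under the floor in both arrays. Of 8 measured osteoclast genes 0 were called higher and 1 lower, beside the same shares of all genes. The osteoclast gene called lower was Itgb3, the β chain of the vitronectin receptor. It was under the floor in Slc39a13-KO and 209.3 in wild-type, at least 2.46-fold lower. That call was also lost with poly-A scaling. The osteoclast genes Calcr, Dcstamp, Mmp9 and Atp6v0d2 were under the floor in both.

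Of 12 neutrophil genes with a probe set 3 were measured and 1 was called higher, against 8.01% of all measured genes. The called gene was Lcn2, which stromal cells can also make, with 1642 in Slc39a13-KO and a wild-type signal under the floor, at least 19.3-fold higher. The granule genes Mpo and Camp were measured without a call, Mpo with 112.7 in Slc39a13-KO and under the floor in wild-type, and Camp under the floor in Slc39a13-KO and with 130.6 in wild-type. Of 12 lymphocyte genes with a probe set 2 were measured and 0 called, and all 8 mast cell genes were under the floor in both arrays.

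Of 15 cartilage genes 14 were measured and all 14 were called higher in Slc39a13-KO, against 8.01% of all measured genes. Comp lost the call with median and loess scaling. The list had a median log2 ratio of 4.20 and a summed signal of 203311 in Slc39a13-KO and 11356 in wild-type. Chondromodulin (Cnmd) was at least 623-fold higher, and the cartilage matrix genes Col9a1, Acan and Matn1 were at least 106-fold, 52.4-fold and 34.9-fold higher. Of 9 measured osteoblast genes 4 were called higher and 1 lower, against 8.01% and 5.93% of all measured genes. Those higher were the matrix proteoglycan Omd (67.9-fold), the parathyroid hormone receptor Pth1r (5.20-fold), the osteocyte gene Dmp1 (at least 4.50-fold) and Alpl (at least 2.32-fold). Dmp1 and Alpl passed the floor only through the Slc39a13-KO array and could only come out higher. The gene called lower was Postn (3.04-fold), a call lost with poly-A scaling. The part that these other cell type markers have in the macrophage values was not tested.

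**Figure D4:**
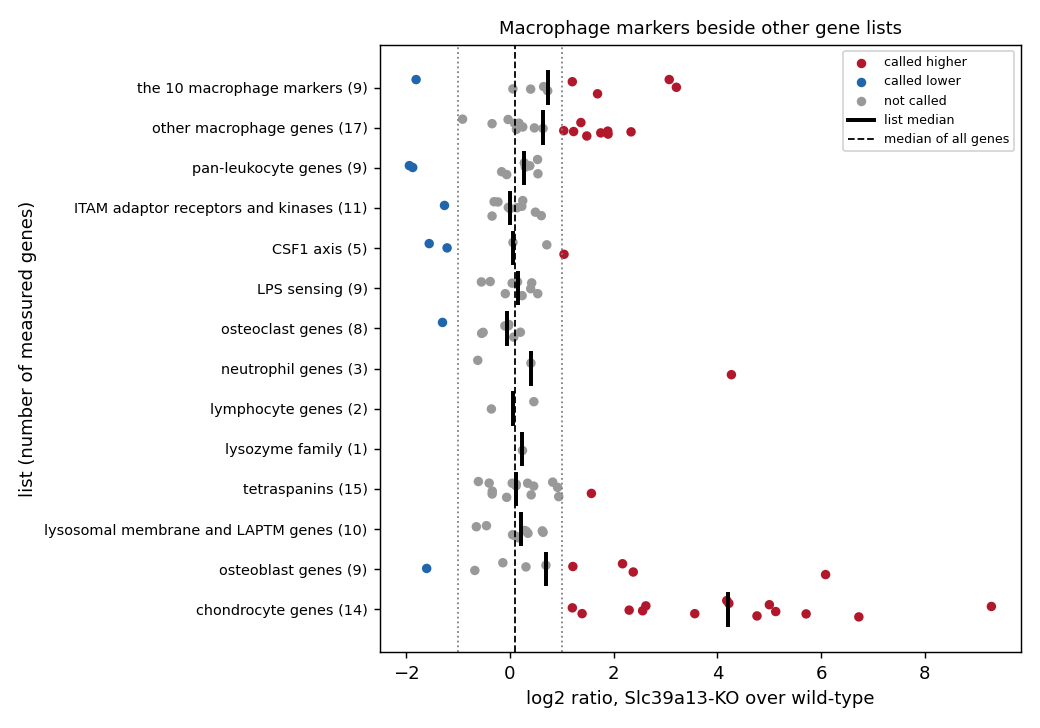
Log2 of the Slc39a13-KO signal over the wild-type signal (horizontal axis), each point 1 measured gene of the list named at the left with its number of measured genes, red if called higher, blue if called lower and grey if not called, with a black bar at the list median, a dashed line at the median of all genes of 0.11 and dotted lines at 2-fold. The 10 macrophage markers and the other macrophage genes have medians of 0.73 and 0.64, the pan-leukocyte list has a median of 0.28 and the osteoclast list of -0.06, and cartilage genes lie far to the right at 4.20. Points at the floor in wild-type can only fall to the right of 0.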

How the data were processed

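Total RNA of 1 Slc39a13-KO and 1 wild-type osteoblast culture was read on Mouse Genome 430 2.0 arrays. The authors deposited linear intensity values, named MAS5 in the submitters' processing notes with no version, whereas the methods name gcRMA. The mean after trimming 2% at each end was 500.003 in both arrays, so any global difference in mRNA was scaled away. No detection calls were used.

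Of 45101 probe sets 64 were controls. The annotation gave 1 symbol to 34945, several to 932 and none to 9160. Symbols were updated through the RefSeq table of GRCm38.p6, which held 34741 (99.4%). The floor, log2 ratio (Slc39a13-KO minus wild-type) and calls are described with the results; a gene took the mean over its measured probe sets. Python 3.11.15, pandas 2.3.3 and statsmodels 0.14.6 (loess span 0.3) were used. The calls were tried on simulated data, with known folds put only into genes far above the floor. Calls near the floor, where most markers lie, were therefore not tested in this way. The 10 markers and all lists were chosen with earlier results of these data known. Text names all 10 markers, up to 4 called genes per direction of each list, and the CSF1, lipopolysaccharide and lysozyme lists where measured; genes outside this rule were named after their values were seen. Alternatives were 4 scalings, 3 floors, 2 probe set choices and 2 thresholds. The number of arrays limits the precision.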

Additional observations from a re-analysis of the deposited data

How the results depend on the processing

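No paired analysis was possible because each genotype has 1 array, and for the same reason no replicate could be left out. Of all called genes 57.5% were higher as scaled, 38.3% with median, 47.6% with quantile, 46.8% with loess and 96.3% with poly-A scaling, so counts in a direction are to be read against these. The share of all measured genes called higher, 8.01% as reported, moved too. It was 10.3% at the 30th percentile floor, 5.79% at the 70th and 16.9% with no floor. It was 19.4% at a 1.5-fold threshold, 2.98% at a 3-fold threshold, 8.68% with the brightest probe set and 8.57% with suffixed probe sets left out. With median, quantile, loess and poly-A scaling it was 5.34%, 6.34%, 6.24% and 45.8%. Of the 10 macrophage markers, 4 were called higher as reported. This count was 7 with poly-A scaling and 2 at a floor of the 70th percentile, where 4 markers were measured. It was 6 at a 1.5-fold threshold, 3 at a 3-fold threshold and 5 with the brightest probe set. In the other settings it stayed 4, but Fcer1g took the place of Lyz1 with the floor at the 30th percentile or none. With suffixed probe sets left out Csf1r took that place. The count called lower, 1 as reported, was 0 with poly-A scaling and at a floor of the 30th or 70th percentile. In these settings 1.75%, 6.54% and 5.01% of all genes were called lower. The median log2 ratio of 0.73 was 1.48 with poly-A scaling, 1.66 at the 70th percentile floor, 1.51 with no floor and 1.20 with the brightest probe set. Of the other macrophage genes, 8 called higher as reported, the count was 14 of 32 measured at the 30th percentile floor, 1 of 6 at the 70th, 16 of 34 with no floor and 4 at a 3-fold threshold. It was 6 with median, quantile or loess scaling and with suffixed probe sets left out, and 9 with poly-A scaling and at a 1.5-fold threshold. Their count called lower, 0 as reported, was 1 with median scaling, with no floor and at a 1.5-fold threshold. In these settings 8.60%, 11.3% and 12.1% of all genes were called lower. The median of 0.64 of the other macrophage genes was 0.99 with no floor. For single markers, 48 alternative log2 ratios lay within 0.34 (the median SD between probe sets) of the reported value and 24 did not, and no called marker changed sign. Sums without Cd53 or Lgals3 were added after seeing the data. The causes of these shifts were not tested.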
